A study of Mus musculus with 3 samples.

Results

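The genes described here are 8 receptors for extracellular purines and related nucleotides, chosen by name: the adenosine receptor genes Adora2a and Adora2b, the ATP-gated channel genes P2rx4 and P2rx7, and the nucleotide receptor genes P2ry2, P2ry6, P2ry13 and P2ry14. They are 8 of the 22350 protein-coding genes that the GENCODE M1 annotation of the mouse mm9 genome places on chromosomes 1 to 19 and X, and all 8 were found by their symbols. They were chosen with earlier results of these data known. Chromatin immunoprecipitation and sequencing (ChIP-Seq) was carried out with an antibody against the form of RNA polymerase II phosphorylated at serine 5 of its C-terminal repeat (Ser5 Pol_II), which marks polymerase that has started transcription. The cells were primary bone marrow-derived macrophages (BMDM) of female Fvb mice (Fvb/Hsd in the study's methods) at the seventh day of differentiation, grown in medium that contained serum and L929-conditioned medium. The study holds 1 Ser5 library of untreated cells, 1 Ser5 library of cells given lipopolysaccharide (LPS, the endotoxin of Gram-negative bacteria) at 10 ng/ml for 2 h, and 1 library of input DNA of untreated cells, with neither genotype nor other treatment named; the age of the mice and how many were pooled are not given in the sources used here.

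Cells release ATP, UTP and other nucleotides when they are stressed or damaged, and enzymes on the cell surface cut these down to adenosine. P2X receptors are cation channels opened by ATP, P2Y receptors couple nucleotides to G proteins, and adenosine receptors couple to G proteins that raise or lower cyclic AMP. In macrophages these receptors are known for roles in inflammasome activation, chemotaxis, phagocytosis and the restraint of inflammatory responses.

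With 1 library per condition there is no replicate spread, and no test was made. Each value is a count of tags (aligned reads, by their 5′ end) and, to compare libraries, tags per 1000000 tags on chromosomes 1 to 19 and X (TPM), given per kb when a density is meant. The libraries hold 6249819 to 7616771 such tags. The range in parentheses after a density or ratio is its exact 95% interval, which covers counting error only. A gene was called higher or lower when its LPS to untreated ratio was at least 2-fold up or down and the sum of its Ser5 tags in untreated and LPS cells was 20 or more. In the gene body (the annotated gene from end to end) 5.26% of 16215 genes with enough tags were called higher and 10.6% lower. In the TSS region (1 kb on each side of the outermost annotated transcription start site) 4.35% of 11419 genes were called higher and 13.1% lower. The median ratio of these genes was 0.873 in the gene body and 0.829 in the TSS region. Of the Ser5 tags, 50.1% of the untreated and 53.7% of the LPS library lay in peaks of either library, against 4.55% of the input tags, so that outside peaks a Ser5 library has a lower density than input. Scaled to tags outside peaks, a ratio to input is 1.91 times as high in untreated cells and 2.06 times as high after LPS, and each ratio to input printed for a member is given on both scales. The 5 LPS response genes Ccl5, Tnf, Cxcl10, Il1b and Nfkbia had gene body ratios of 6.17 to 396, which checks the labels of both Ser5 libraries. In untreated cells the macrophage markers Lyz2, Cd14, Cd68 and Csf1r stood at 105, 48.9, 41.7 and 19.2 TPM per kb. Fcgr3, Emr1 and Itgam were far lower, at 2.72, 2.22 and 1.94. After LPS Itgam lay below input, at 0.444 against 0.725, but at 1.26 times input when scaled to tags outside peaks. The 13 T cell, B cell, neutrophil and fibroblast markers listed were below their input density in both libraries, apart from Cd79a. Cd79a stood at 0.927 and 0.897 against 0.551. Scaled to tags outside peaks, 9 of the 13 were below input in both libraries. Of the 7 macrophage markers found by symbol, 5 were called lower after LPS and 2 higher in the gene body, with a median ratio of 0.405; whether this has a part in the ratios of the receptors was not tested. Tags were 45 bases long in the untreated and 30 in the LPS library, and at 30 bases up to 12.4% of a member's gene body positions (P2rx4) recur elsewhere in the genome; without them the untreated count of P2rx4 was 1213 in place of 1228 and that of P2rx7 738 in place of 750. Fewer cells with Pol_II on a gene and less Pol_II per cell cannot be told apart in such libraries.

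The start regions of 5 members are shown because the results turn on them: Adora2a and P2ry14 were called higher after LPS in the TSS region, P2rx7 and P2ry6 were called lower, and P2rx4 had the highest density in both libraries. P2ry13 was also called lower in the TSS region, on 38 untreated and 3 LPS tags, and its start is not shown. Each line gives the 250 bases before the start on the strand of the gene, 5′ to 3′, from the mm9 reference and not from the Fvb/Hsd mice, and capitals mark a match to one of the 6 motifs named after the sequences.

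Adora2a (chr10:74779438-74779687, + strand): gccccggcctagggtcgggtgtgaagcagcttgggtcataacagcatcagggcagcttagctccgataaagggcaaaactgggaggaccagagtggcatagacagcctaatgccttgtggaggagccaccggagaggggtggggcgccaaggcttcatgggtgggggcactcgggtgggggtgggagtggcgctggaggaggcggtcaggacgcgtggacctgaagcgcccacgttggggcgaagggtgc
P2rx4 (chr5:123157343-123157592, + strand): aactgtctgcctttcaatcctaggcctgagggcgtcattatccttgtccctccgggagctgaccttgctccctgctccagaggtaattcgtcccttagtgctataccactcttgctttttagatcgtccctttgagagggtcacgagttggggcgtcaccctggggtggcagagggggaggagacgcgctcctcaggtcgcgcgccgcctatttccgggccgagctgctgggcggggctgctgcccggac
P2rx7 (chr5:123093670-123093919, + strand): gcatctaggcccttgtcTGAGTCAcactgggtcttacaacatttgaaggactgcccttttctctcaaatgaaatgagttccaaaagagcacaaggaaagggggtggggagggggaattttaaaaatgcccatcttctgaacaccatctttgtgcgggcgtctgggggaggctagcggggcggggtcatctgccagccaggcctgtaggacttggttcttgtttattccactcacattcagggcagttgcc
P2ry6 (chr7:108112906-108113155, - strand): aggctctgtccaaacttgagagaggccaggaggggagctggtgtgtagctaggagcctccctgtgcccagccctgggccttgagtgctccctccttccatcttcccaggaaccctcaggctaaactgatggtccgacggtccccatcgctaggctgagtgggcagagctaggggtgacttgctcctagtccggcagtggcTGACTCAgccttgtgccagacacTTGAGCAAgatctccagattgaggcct
P2ry14 (chr3:58934547-58934796, - strand): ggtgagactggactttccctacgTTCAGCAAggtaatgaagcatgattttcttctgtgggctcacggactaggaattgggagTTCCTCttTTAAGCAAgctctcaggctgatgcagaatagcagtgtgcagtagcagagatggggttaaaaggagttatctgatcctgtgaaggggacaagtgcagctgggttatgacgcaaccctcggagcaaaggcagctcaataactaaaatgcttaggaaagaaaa

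The motifs were searched on both strands from 250 bases before to 50 bases after the start of all 22345 genes with such a window. The AP-1 site was read as TGANTCA, the PU box of macrophage ETS factors as GAGGAA, the C/EBP site as TTGCNNAA, the cyclic AMP response element (CRE) as TGACGTCA, the TATA box as TATAAA, and the NF-kB site by its consensus. An AP-1 match stood in P2rx7, from 233 to 227 bases before the start, and in P2ry6, from 50 to 44 bases before it. Of all windows, 6.93% hold one. P2ry13, which like them was called lower in the TSS region, held no AP-1 match. A C/EBP match stood in P2ry2, P2ry6 and P2ry14, against 10.3% of windows, and P2ry14 held a pair of them. A PU box stood in P2rx7, P2ry13 and P2ry14, against 28.1% of windows. None of the 8 windows held the NF-kB consensus, the CRE or the TATA box, which occur in 4.73%, 2.33% and 13.4% of windows, and no matches in the 8 windows overlapped each other. These are matches of letters and say nothing on binding.

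The CpG content of the same windows split the members. Adora2b, P2rx4 and P2ry2 had an observed to expected CpG ratio of 0.735, 0.783 and 0.770, above the limit of 0.6 that 45.2% of all windows reach, and none of the 3 was called in either region. The other 5 members lay between 0.152 in P2ry6 and 0.504 in Adora2a, and each of these 5 was called in the TSS region. This split depends on the settings. With 500 bp on each side of the start P2ry14 was at 1.62 and not called, and P2ry13 had too few tags for a value. The TSS call of P2ry13, on 38 untreated and 3 LPS tags, is also lost with a minimum of 50 tags. Adora2a, P2rx7 and P2ry6 kept their calls under both settings. Over all genes, 29.8% of those under the limit and 12.4% of those at or above it were called in the TSS region in either direction, and 19.4% and 13.4% in the gene body.

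**Figure D1:**
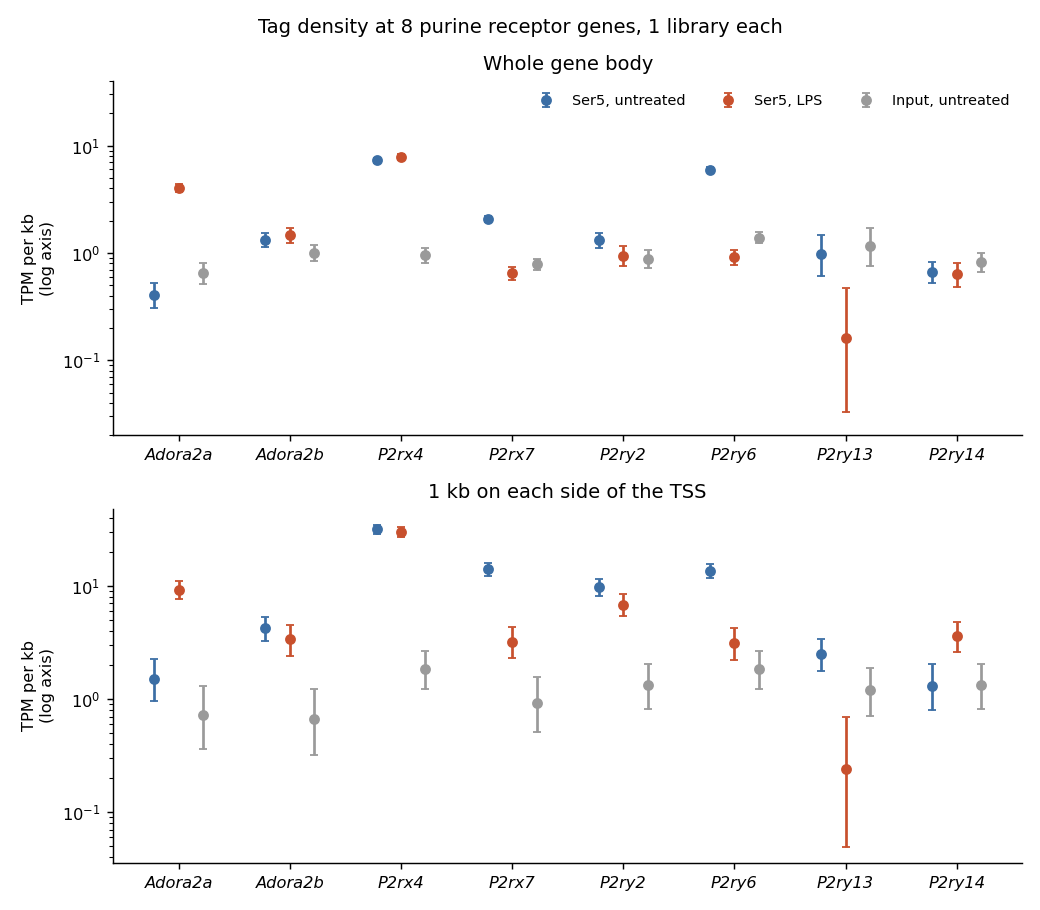
Tag density (TPM per kb, log axis) in the gene body (top) and in the TSS region (bottom) of the 8 members, as 1 point per library with its exact 95% counting interval. After LPS the gene body of Adora2a stands at 4.04 against 0.405 in untreated cells and 0.647 in input, that of P2ry6 at 0.915 against 5.98, and that of P2rx4 at 7.82 against 7.28.

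In untreated macrophages P2rx4 had the highest gene body density, at 7.28 TPM per kb (6.88 to 7.70), followed by P2ry6 at 5.98 (5.65 to 6.33) and P2rx7 at 2.07 (1.93 to 2.23). The intervals of these 3 do not overlap. Adora2b and P2ry2, both at 1.32, and P2ry13, at 0.967, had overlapping intervals, and P2ry14 at 0.665 (0.528 to 0.826) and Adora2a at 0.405 (0.305 to 0.527) came last. After LPS the order was P2rx4 at 7.82 (7.36 to 8.30), Adora2a at 4.04 (3.68 to 4.43) and Adora2b at 1.46 (1.24 to 1.70), with P2ry2, P2ry6, P2rx7 and P2ry14 between 0.934 and 0.630 and P2ry13 at 0.161. Among all genes ranked by gene body density, Adora2a moved from percentile 49.5 to 90.9, P2ry6 from 93.7 to 65.9 and P2rx7 from 79.2 to 59.6, while P2rx4 stood at 95.1 and 95.7.

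In the gene body, 1 of the 8 members was called higher after LPS (Adora2a) and 3 were called lower (P2rx7, P2ry6 and P2ry13), beside 5.26% and 10.6% of all genes. In the TSS region, 2 were called higher (Adora2a and P2ry14) and the same 3 lower, beside 4.35% and 13.1%. The median ratio of the 8 was 0.828 in the gene body and 0.750 in the TSS region. With 8 members, chosen with earlier results of these data known, these counts are a description and no test.

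**Figure D2:**
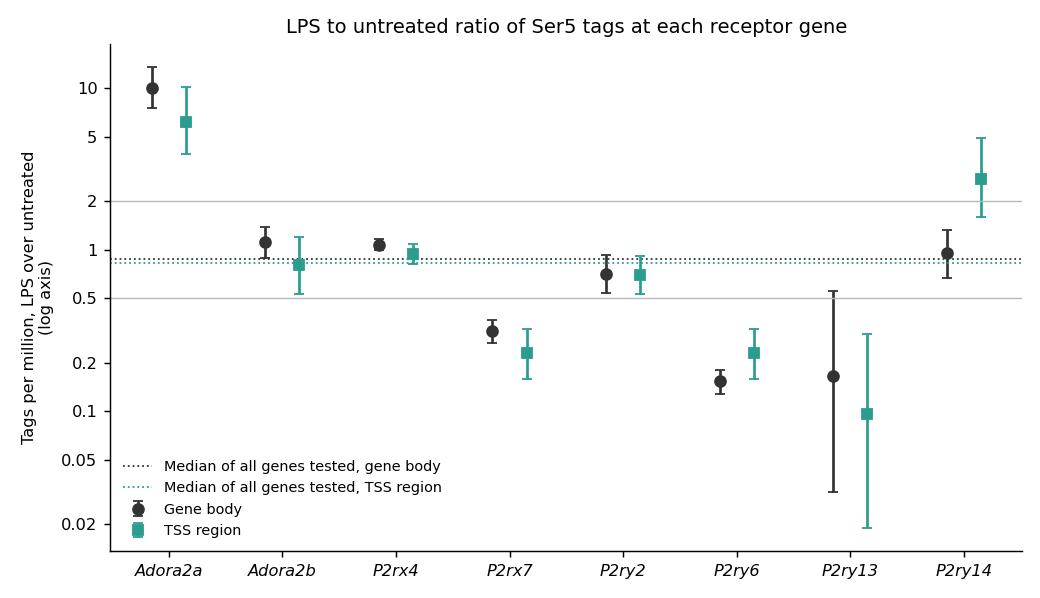
LPS to untreated ratio of Ser5 TPM (log axis) for each member in the gene body (circles) and the TSS region (squares), with exact 95% counting intervals. Dotted lines mark the medians of all genes tested, 0.873 and 0.829, and grey lines the 2-fold limits; P2ry14 is the member whose regions are called differently, 0.948 in the gene body and 2.74 in the TSS region.

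Peaks had been called by the authors, separately for either Ser5 library, with input as the reference. In untreated cells 6 of 8 members had a peak that overlaps the gene body and 7 of 8 one that overlaps the TSS region, against 53.3% and 48.0% of all genes. After LPS it was 7 of 8 in each, against 50.6% and 45.9%. Adora2a was the member with no peak in either region in untreated cells, and P2ry13 had none in its gene body in either library and none in its TSS region after LPS.

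Adora2a encodes a high-affinity adenosine receptor, which raises cyclic AMP and is known to dampen inflammatory responses of macrophages. The gene (chr10:74779688-74797533, + strand, 3 exons) held 55 tags in untreated cells, 451 after LPS and 87 in input, a ratio of 9.99 (7.54 to 13.5). Its TSS region held 23, 116 and 11 tags, a ratio of 6.15 (3.90 to 10.1). Tags were higher all along the gene: the part before the midpoint went from 20 to 252 tags, the part after it from 35 to 199, and the 5 kb past the annotated end from 3 to 53. In untreated cells the gene body had 0.625 times the input TPM (0.438 to 0.886), and after LPS 6.25 times (4.96 to 7.95). Scaled to tags outside peaks, these were 1.20 times (0.837 to 1.70), an interval that includes 1, and 12.9 times (10.2 to 16.4).

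No peak overlapped the gene in untreated cells, and 6 did after LPS, covering 26.3% of it. The highest, centred 864 bases past the start in the first intron, held 8 untreated and 140 LPS tags. Another, in the second intron 10001 bases past the start, held 18 and 83, against 16 in input. At 7667 and 8733 bases past the start, intronic peaks held 0 and 14 tags each, at least 5.69-fold higher after LPS when 3 tags are taken as the limit of a count of 0. That limit leaves out the counting error of the other library, and the exact interval of the ratio begins at 4.04. These peaks were called in the LPS library, so their height there is given and not tested. The 300 bases around the centre of the peak at 10001 bases are shown as an example of Ser5 Pol_II that appears inside an intron; capitals mark a pair of PU box matches, and 29.6% of LPS peaks hold at least 1 in such a window:

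Adora2a intron (chr10:74789540-74789839, + strand): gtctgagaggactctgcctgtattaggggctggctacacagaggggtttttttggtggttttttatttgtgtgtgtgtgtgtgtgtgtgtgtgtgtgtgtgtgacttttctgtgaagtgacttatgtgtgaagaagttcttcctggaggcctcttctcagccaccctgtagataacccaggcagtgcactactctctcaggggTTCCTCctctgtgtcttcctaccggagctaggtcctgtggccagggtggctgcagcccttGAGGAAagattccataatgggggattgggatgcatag

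Upstream of Adora2a the libraries differed less. From 10 kb to 1 kb before the start there were 127 untreated and 111 LPS tags against 42 in input, a ratio of 1.07 (0.818 to 1.39). This stretch had 2 peaks in untreated cells, centred 2692 and 2020 bases before the start, and 3 after LPS, centred 3510, 2880 and 1040 bases before it. The peak 2020 bases before the start went from 20 to 6 tags and the one 1040 bases before it from 3 to 17. Each was called only in the library where it is higher, so these counts are given and not tested. The nearest gene, Specc1l, ends 4544 bases upstream on the same strand and had 681 and 604 tags, a ratio of 1.08 (0.967 to 1.21).

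Adora2b encodes a low-affinity adenosine receptor that also raises cyclic AMP. Its gene body (chr11:62062486-62079955, + strand, 2 exons) held 175 untreated, 159 LPS and 131 input tags, a ratio of 1.11 (0.888 to 1.38). Its TSS region held 64, 42 and 10 tags, a ratio of 0.800 (0.529 to 1.20). Both ratios are within the 2-fold limits and their intervals include 1. A peak at the start and one in the intron were called in both libraries, the latter 2248 bases past the start with 50 untreated and 23 LPS tags, 0.561 (0.326 to 0.936). A peak 447 bases before the start, called in untreated cells, went from 12 tags to 0, at least 3.28-fold lower by the limit of 3 tags, with an exact interval of the ratio that reaches 0.439. An intronic peak 714 bases past the start, called after LPS, went the other way, from 3 tags to 10, 4.06 (1.05 to 23.0). Both were called only in the library where they are higher. The ratio of Adora2a was 9.99 and that of Adora2b 1.11, and their intervals do not overlap.

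**Figure D3:**
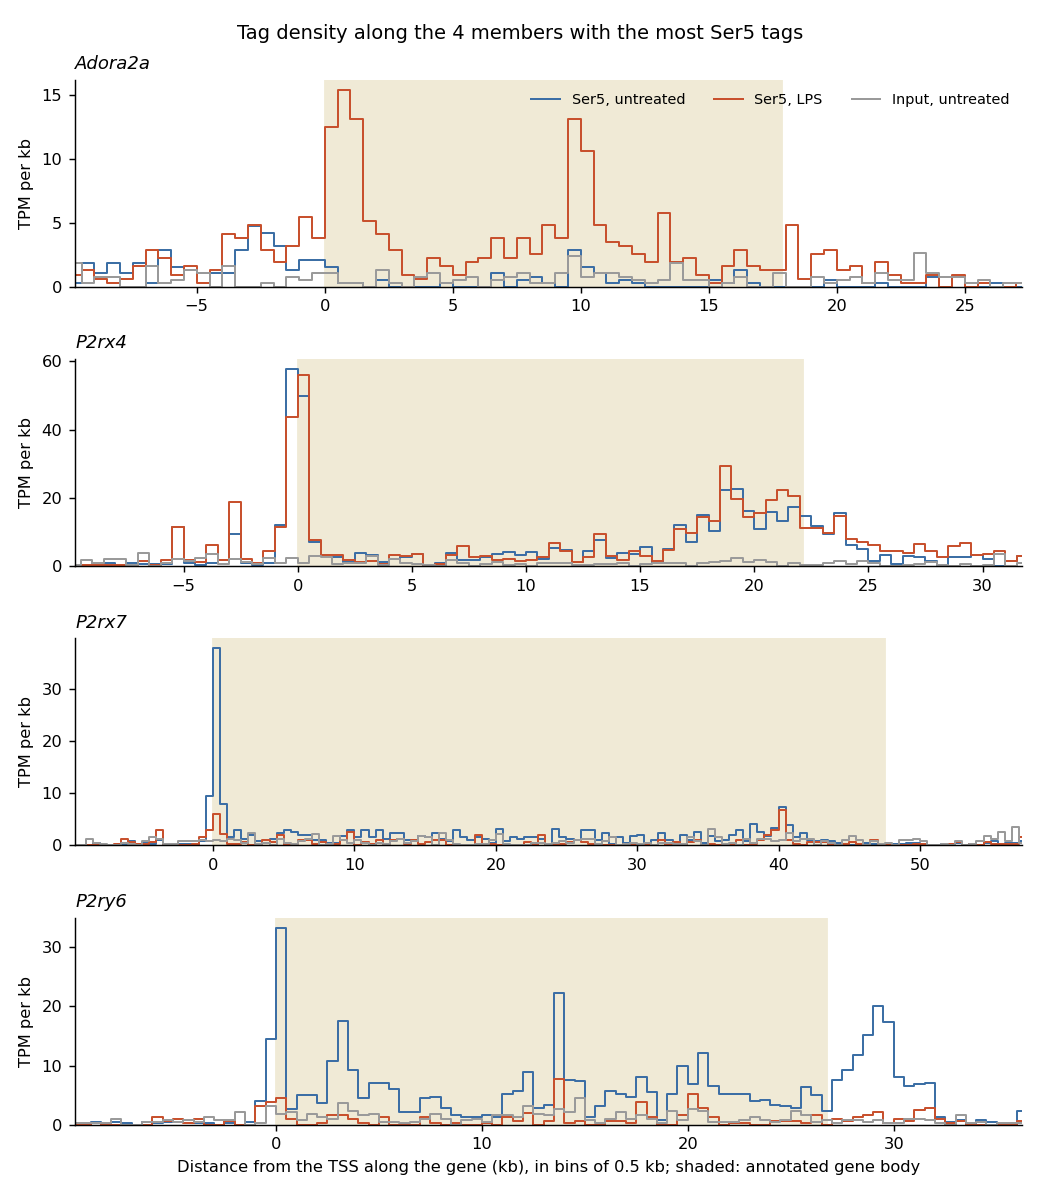
Tag density (TPM per kb) in bins of 500 bp along Adora2a, P2rx4, P2rx7 and P2ry6, from 10 kb before the start to 10 kb past the annotated end, by distance from the TSS in kb; the shaded span is the annotated gene. At Adora2a the LPS line rises over the gene while the untreated line stays near input, at P2rx4 both Ser5 lines run together, and at P2rx7 and P2ry6 the untreated line stands above the LPS line, at P2ry6 also past the end of the gene.

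P2rx4 encodes an ATP-gated channel found on the surface and on lysosomes of macrophages. It had the most tags of the 8 in both regions and both Ser5 libraries. The gene body (chr5:123157593-123179747, + strand) held 1228 untreated, 1083 LPS and 159 input tags, a ratio of 1.07 (0.990 to 1.17). The TSS region held 483, 372 and 28 tags, a ratio of 0.939 (0.818 to 1.08). Both are close to 1. The gene body ratio was 1.23 times the median of all genes (1.13 to 1.34). The TSS ratio was 1.13 times the median (0.987 to 1.30), an interval that includes 1. The density was 5.05 times higher in the TSS region than in the rest of the gene in untreated cells (4.52 to 5.63) and 4.45 times after LPS (3.93 to 5.03).

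Ser5 tags at P2rx4 lay mostly at its start and near its end. The peak at the start held 475 untreated and 362 LPS tags, and a single peak of 5578 bases centred 20832 bases past the start held 632 and 594. In all, 14 peaks covered 50.4% of the gene in untreated cells and 9 covered 40.1% after LPS. The 5 kb past the annotated end held 255 and 247 tags, a ratio of 1.18 (0.987 to 1.41). Camkk2 lies there on the other strand and ends 3466 bases from the end of P2rx4. It went from 880 to 1299 tags, 1.80 (1.65 to 1.96), and tags between the ends of both genes cannot be assigned to 1 of them. Upstream, from 10 kb to 1 kb before the start, tags went from 118 to 172, 1.78 (1.40 to 2.26), against 109 in input, and a peak 2851 bases before the start went from 41 to 63.

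P2rx7 encodes the ATP-gated channel that triggers potassium efflux and NLRP3 inflammasome activation. The gene body (chr5:123093920-123141441, + strand) held 750 untreated, 192 LPS and 280 input tags, a ratio of 0.312 (0.265 to 0.366). The TSS region held 213, 40 and 14 tags, a ratio of 0.229 (0.159 to 0.322). Its neighbour P2rx4, on the same strand and 16152 bases further on, with the short gene Gm10064 between them at 0 tags in all libraries, had gene body and TSS ratios of 1.07 and 0.939, and the intervals of the paired ratios do not overlap. After LPS the gene body density of P2rx7 was 0.646 TPM per kb against 0.782 in input, 0.827 times (0.684 to 0.997). Scaled to tags outside peaks it was 1.70 times the input (1.41 to 2.05), so whether it lay below or above input depends on the scaling.

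The ratio differed from peak to peak along P2rx7. The peak at the start went from 202 to 33 tags, 0.199 (0.133 to 0.289). Intronic peaks 5545 and 24341 bases past the start went from 10 tags to 0 each, at least 2.74-fold lower by the limit of 3 tags, with an exact interval of the ratio that reaches 0.544. A peak over an exon 40137 bases past the start held 29 untreated and 22 LPS tags, 0.925 (0.506 to 1.67), and was called in both libraries. Of the 6 untreated peaks in the gene, this was the one with a ratio above 0.5. Those peaks were picked by their height in untreated cells, so this count is a description. In all, 3 peaks were called in the gene after LPS, covering 1.71% of the gene against 4.08% before.

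P2ry2 encodes a receptor for ATP and UTP that couples to phospholipase C. Its gene body (chr7:108145086-108160505, - strand, 3 exons) held 155 untreated, 90 LPS and 102 input tags, a ratio of 0.708 (0.540 to 0.923). Its TSS region held 148, 85 and 20 tags, a ratio of 0.700 (0.530 to 0.920). Both ratios are below 1 and inside the 2-fold limits. Against the medians of all genes they were 0.811 times (0.618 to 1.06) and 0.845 times (0.639 to 1.11), and both intervals include 1. The gene had 1 peak in each library, at its start, with 137 untreated and 77 LPS tags. The density of the TSS region was 9.88 times that of the rest of the gene in untreated cells (7.65 to 12.8) and 11.3 times after LPS (7.97 to 16.3).

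P2ry6 encodes a receptor for UDP that is known for its part in phagocytosis and chemokine release. Its gene body ratio had the lowest value of the 8, but the interval of P2ry13, at 0.166 (0.0318 to 0.553), spans it, and the order of these receptors turned when tags were shifted by 75 bp. The gene body (chr7:108086152-108112905, - strand, 3 exons) held 1219 untreated, 153 LPS and 280 input tags, a ratio of 0.153 (0.128 to 0.181). The TSS region held 207, 39 and 28 tags, a ratio of 0.230 (0.159 to 0.325). After LPS the gene body had 0.659 times the input TPM (0.537 to 0.805), against 4.31 times in untreated cells (3.78 to 4.92). Scaled to tags outside peaks, it was 1.36 times (1.11 to 1.66), against 8.24 times (7.23 to 9.41).

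Ser5 peaks covered 50.9% of P2ry6 in untreated cells, in 16 peaks, and 2.57% after LPS, in 2 peaks. Every untreated peak in the gene had a ratio under 0.5, from 0 to 0.464. These peaks were called in the untreated library, so their ratios are given and not tested. The peak at the start went from 180 to 23 tags, and intronic peaks 3235, 14019 and 20268 bases past the start from 143 to 13, 136 to 28 and 151 to 34. The 300 bases around the centre of the peak at 20268 bases, an intronic stretch, are shown because they hold matches to the NF-kB consensus, the AP-1 site and the PU box (capitals), which 4.36%, 9.64% and 30.4% of untreated peaks hold in such a window:

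P2ry6 intron (chr7:108092488-108092787, + strand of the genome): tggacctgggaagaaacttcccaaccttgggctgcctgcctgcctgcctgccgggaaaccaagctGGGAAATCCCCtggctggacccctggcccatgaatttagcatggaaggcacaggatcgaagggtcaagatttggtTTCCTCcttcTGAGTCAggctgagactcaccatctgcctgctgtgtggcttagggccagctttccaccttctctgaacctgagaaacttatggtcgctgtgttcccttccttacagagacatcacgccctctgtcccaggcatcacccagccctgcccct

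Past the annotated end of P2ry6 the density was higher than within it. The 5 kb there held 412 untreated, 40 LPS and 25 input tags, a ratio of 0.118 (0.0833 to 0.164). The peak with the most tags of the locus, 2773 bases long and centred 29000 bases past the start, lies in this stretch, outside any annotated gene, and went from 305 to 22 tags. Arhgef17 starts 5477 bases past the end on the same strand and held 127 and 94 tags, a ratio of 0.902 (0.683 to 1.19). The stretch between P2ry2 and P2ry6, 32181 bases long, had 4 untreated peaks within 10 kb of the end of P2ry2. Of these, 3 had ratios of 0.122 to 0.255, and the fourth, the nearest to P2ry2, held 16 and 14 tags, a ratio of 1.07 (0.482 to 2.33). Like the peak of 2773 bases, they were taken from the peaks called in untreated cells, so their ratios are given and not tested.

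P2ry13, a receptor for ADP, and P2ry14, a receptor for UDP-glucose and UDP, lie on chromosome 3 on the - strand, together with P2ry12, inside Med12l, which is transcribed from the other strand. Tags carry no strand of transcription, so those inside a member cannot be told from those of Med12l. Outside the receptor genes that lie within it, Med12l had 0.142 TPM per kb in untreated cells and 0.106 after LPS, against 0.554 in input.

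P2ry13 (chr3:59011818-59014804, 2 exons) had few tags. Its gene body held 22 untreated, 3 LPS and 26 input tags, a ratio of 0.166 (0.0318 to 0.553). Its TSS region held 38, 3 and 18 tags, a ratio of 0.0962 (0.0190 to 0.303). The untreated tags lay around the start, and the downstream part held 5 and 2. A peak of 332 bases, centred 1041 bases before the start and partly in the TSS region, was called in untreated cells and went from 19 tags to 2, 0.128 (0.0145 to 0.532). The call of the gene body rests on 25 tags and is lost with a minimum of 50. P2ry12, the platelet and microglial ADP receptor 5389 bases away, was also called lower, with 135 and 49 tags in the gene body, 0.442 (0.312 to 0.618), and 28 and 6 in the TSS region.

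P2ry14 (chr3:58918548-58934546) was the member in which start and gene body went apart. Its gene body held 81 untreated, 63 LPS and 99 input tags, a ratio of 0.948 (0.671 to 1.33). Its TSS region held 20, 45 and 20 tags, a ratio of 2.74 (1.59 to 4.90). The part before the midpoint went from 26 to 45 tags, 2.11 (1.27 to 3.56), against 40 in input. The part after it went from 55 to 18, 0.399 (0.220 to 0.690), against 59 in input. The gene without its first 1 kb went from 73 to 28 tags, 0.467 (0.291 to 0.732), and would be called lower. The TSS region was 2.05 times as dense as the rest of the gene in untreated cells (1.19 to 3.41), and after LPS this factor had an interval of 7.35 to 20.1.

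Peaks at P2ry14 are given for the places of tags, and those called in only 1 library were picked by their height there. A peak at the start was called in both libraries, with 17 and 20 tags over its untreated span. A second LPS peak, centred 784 bases past the start, held 0 untreated and 12 LPS tags, at least 4.87-fold higher by the limit of 3 tags, with an exact interval of the ratio that begins at 3.39. An intronic peak 10392 bases past the start was called in untreated cells and not after LPS, and went from 22 to 4 tags, 0.222 (0.0555 to 0.652). With 500 bp on each side of the start, which leaves the peak at 784 bases out, the TSS ratio was 1.62 (0.846 to 3.18) and P2ry14 was not called.

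**Figure D4:**
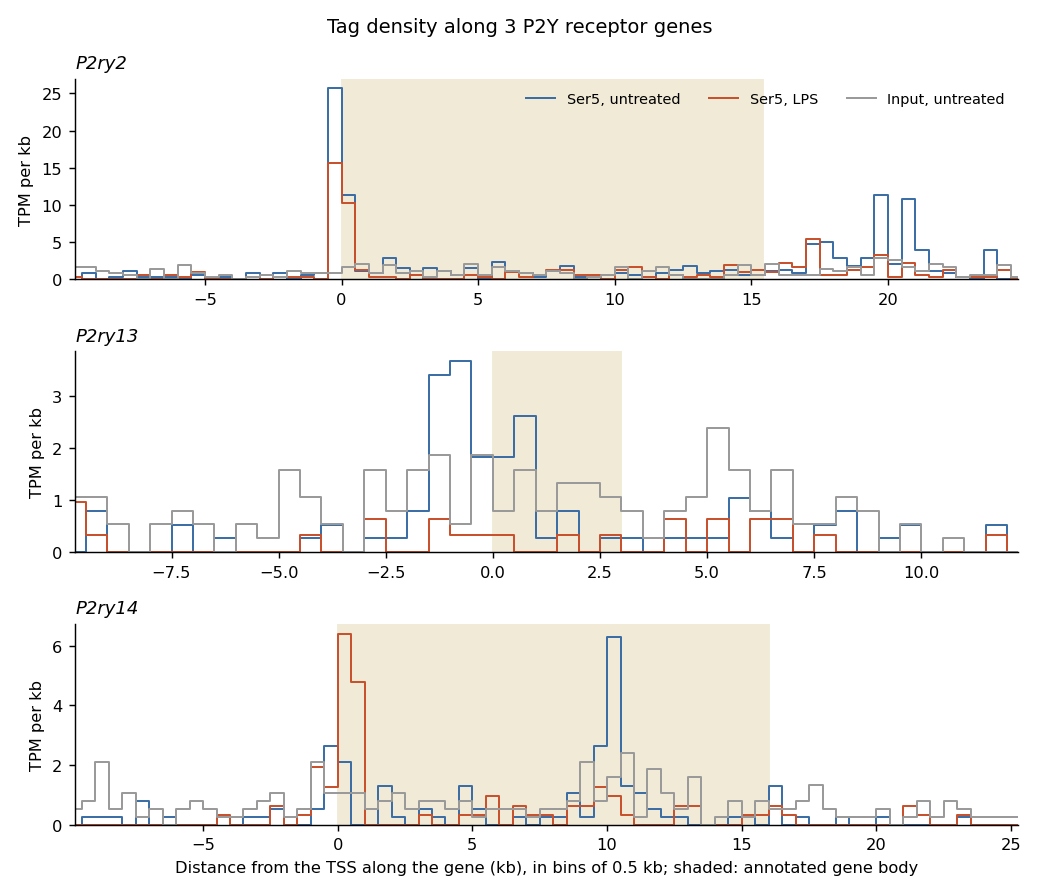
Tag density (TPM per kb) in bins of 500 bp along P2ry2, P2ry13 and P2ry14, from 10 kb before the start to 10 kb past the annotated end, by distance from the TSS in kb; the shaded span is the annotated gene. At P2ry14 the LPS line is highest just past the start and the untreated line about 10 kb further on, and at P2ry13 the untreated line rises around the start, where the LPS line stays under input.

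The lists of genes that follow were chosen with earlier results of these data known, so their counts are a description and no test. The other 11 purine receptor genes gave no call upwards in the gene body. Of the 9 with enough tags, 4 were called lower, beside 5.26% of all genes called higher and 10.6% lower. These were P2ry1, an ADP receptor, at 0.258 (0.167 to 0.387), P2rx2 at 0.323 (0.181 to 0.549), P2rx6 at 0.328 (0.224 to 0.470) and P2ry12 at 0.442. The gene body of P2ry12 was not above input in untreated cells. The median of the 9 was 0.501 beside 0.873 for all genes. In the TSS region P2ry1 went from 249 to 36 tags, 0.176 (0.121 to 0.251), more untreated tags than at the start of P2rx7 or P2ry6. P2rx5 was called higher in its TSS region on 14 and 23 tags, 2.00 (0.987 to 4.21), an interval that includes 1. Adora3, the A3 adenosine receptor, held 540 and 222 tags over its longest gene record, 0.501 (0.427 to 0.587), just inside the limit.

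Of 6 ectonucleotidases with enough gene body tags, 1 was called lower and none higher, with a median ratio of 0.691. Of 6 genes of adenosine handling, 1 was called in each direction, with a median of 0.662; the shares of all genes were 5.26% higher and 10.6% lower. Entpd1 (CD39), which cuts ATP and ADP to AMP, went from 427 to 196 tags in the gene body against 758 in input, 0.559 (0.470 to 0.664), and from 50 to 11 in the TSS region, 0.268 (0.126 to 0.522), a call. Nt5e (CD73), which cuts AMP to adenosine, held 101 and 67 tags in the gene body against 240 in input, 0.808 (0.585 to 1.11). Enpp1, a nucleotide pyrophosphatase, was called lower, 0.432 (0.338 to 0.549), whereas Enpp3, of the same family, held 50 and 52 tags, 1.27 (0.843 to 1.91). Ada, which deaminates adenosine to inosine, was called lower in both regions, with 193 and 76 gene body tags, 0.480 (0.363 to 0.629), and 61 and 12 in the TSS region. In the adenosine handling list the call upwards was Slc28a2, a concentrative nucleoside transporter, on 40 and 109 tags against 77 in input, 3.32 (2.29 to 4.90). Slc29a1, an equilibrative nucleoside transporter, was called in the TSS region, 2.69 (1.53 to 4.90), and had a gene body ratio of 0.895.

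Of 4 genes for nucleotide release, Gja1 (connexin 43) was called higher, from 69 to 284 gene body tags, 5.02 (3.84 to 6.62). Slc17a9, the vesicular nucleotide transporter, at 0.451 (0.362 to 0.559), and Panx2, at 0.353 (0.163 to 0.704), were called lower. The shares of all genes were 5.26% higher and 10.6% lower. Panx1, the pannexin channel of macrophages, had a gene body ratio of 0.747 and was called lower in the TSS region, from 121 to 44 tags, 0.443 (0.306 to 0.631).

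Among 14 genes for G proteins, cyclic AMP and calcium signalling, 2 were called higher in the gene body and 1 lower. The shares of all genes were 5.26% and 10.6%, and the median ratio of the 14 was 1.00. Pde4b, which degrades cyclic AMP, went from 708 to 3070 tags, 5.28 (4.87 to 5.74), and Gna13 from 644 to 1113, 2.11 (1.91 to 2.32). Plcb2, a phospholipase C, went from 457 to 107, 0.285 (0.229 to 0.353).

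Of 5 genes measured that act after P2rx7, 4 were called higher in the gene body and 1 lower, beside 5.26% and 10.6% of all genes. This list too was chosen with earlier results of these data known, and Il1b also served to check the labels, so the count is a description. Called higher were Il1b at 44.5 (31.8 to 64.1), Nlrp3 at 4.45 (4.11 to 4.83), Il18 at 4.37 (2.52 to 7.99) and Casp1 at 3.40 (2.57 to 4.53). Pycard, the inflammasome adaptor, was called lower at 0.392 (0.306 to 0.498). P2rx7 itself was called lower, at 0.312. The sixth gene listed was not found under its symbol.

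**Figure D5:**
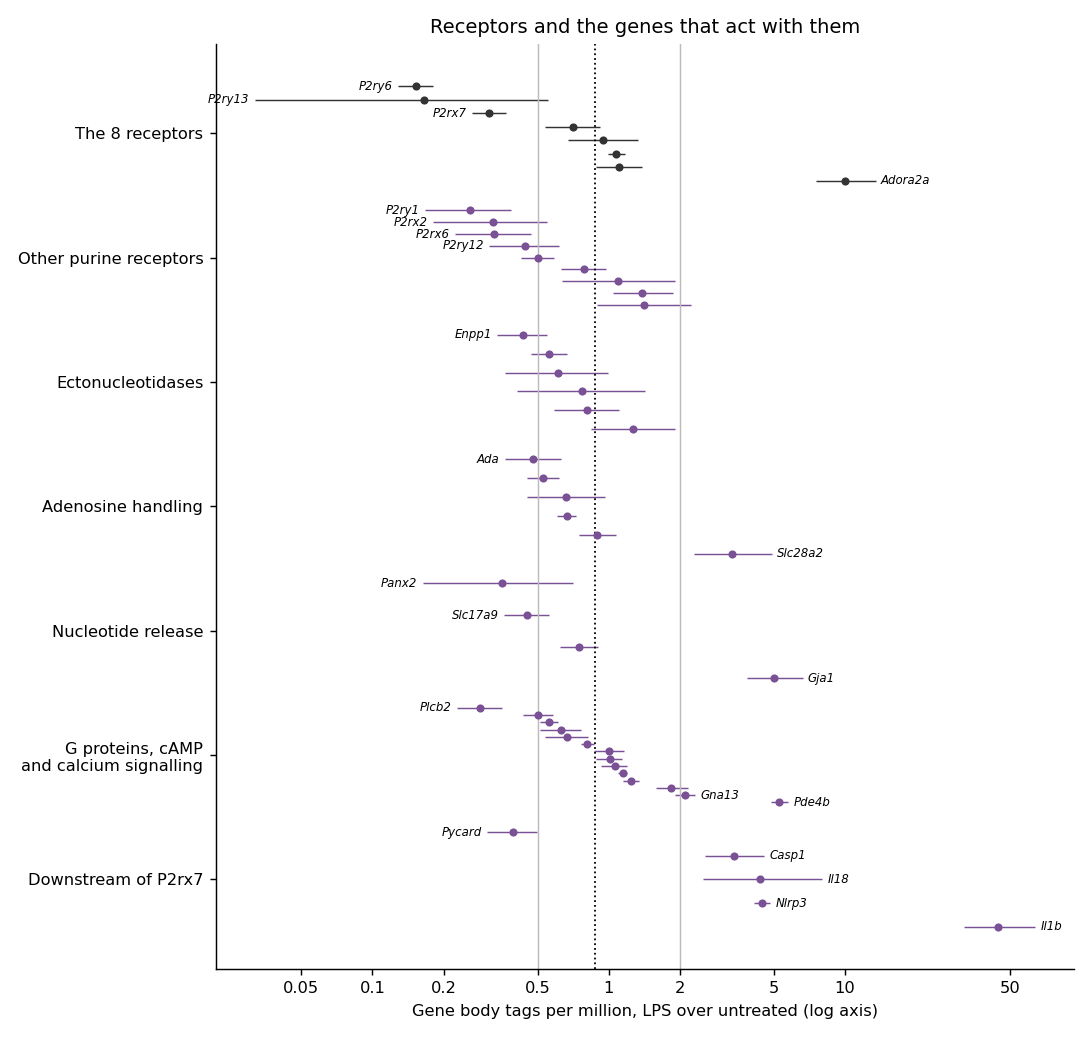
LPS to untreated ratio of gene body TPM (log axis) for the 8 receptors and for 6 lists of genes that act with them, 1 point per gene with at least 20 tags and its exact 95% counting interval; genes past a 2-fold limit (grey lines) are named, and the dotted line is the median of all genes, 0.873. Adora2a at 9.99 has the highest ratio among all receptors plotted, and 3 of the 8 members and 4 of the other 9 receptors lie under 0.5. Of all genes tested, 5.26% were called higher and 10.6% lower.

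The genes most like a member were sought among 11279 genes by the distance over 4 values, the log2 densities of gene body and TSS region in both Ser5 libraries. Nearest to Adora2a, the member with the highest gene body ratio, were Csf1 at a distance of 0.749, Kcnrg at 0.869 and Lox at 0.965. Nearest to P2ry6, whose ratio of 0.153 was the lowest value though its interval overlaps that of P2ry13, were Hal at 0.391, Tpra1 at 0.400 and Slc37a2 at 0.493. Csf1, for example, went from 0.642 to 4.56 TPM per kb in the gene body, and Hal from 5.50 to 0.833.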

How the data were processed

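The authors deposited aligned tags of 3 libraries (Ser5 untreated, Ser5 LPS, input untreated) and peaks of both Ser5 libraries. Per the labels and the study's methods, reads were trimmed, aligned to mm9 with Bowtie (unique matches with at most 2 mismatches), and peaks were called per library with MACS against input at a p of 1e-05; versions are not given in the sources used here. The score of a deposited peak is -10 times the log10 of its p-value. The deposited positions are not normalized, duplicates are kept, and counts of tags were made from them here. The methods give the shorter trim for the untreated library, but its tags are 45 bases long, those of the LPS library 30 and those of input 36; reads that are unique at 45 bases can be lost at 30.

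The 5′ ends of tags were counted in each gene of GENCODE M1 (mm9), with names and coordinates of the same build, and scaled to tags on chromosomes 1 to 19 and X, 7616771, 6249819 and 7533308. Peaks were assigned by an overlap of at least 1 base, within 10 kb of a gene. Where a symbol has more than 1 gene record, the longest was used. Intervals are exact (Poisson for a count, conditional on the sum for a ratio) and cover counting error only; scripts ran in Python 3.11.15 with scipy 1.17.1 and were tested on simulated data. Likeness used log2 values with 0.5 tag added. Named genes were the 8 members, the called genes of 6 lists with Entpd1, Nt5e and Ada, the genes that overlap or adjoin a member (an adjoining gene is not reported here), and the 3 genes nearest to the members with the highest and the lowest gene body ratio; Adora3, Panx1, Slc29a1 and P2rx5 are called in the TSS region or lie at the limit. The members and lists were chosen with earlier results of these data known. Alternatives changed duplicates, tag position, scaling, region limits, tag minimum, uniqueness and peak rules.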

Additional observations from a re-analysis of the deposited data

How the results depend on the processing

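No paired analysis was possible because each condition has 1 library, and leaving out a library was not possible for the same reason. Each member's ratio was computed again after duplicates at a position were dropped, after a shift of tags by 75 bp, with scaling to tags outside peaks, a minimum of 50 tags, positions whose 30 bases occur once, and other region limits. Of 46 gene body values, 45 lay inside the main 95% interval, and of 54 TSS values all 54. Some of these values could not differ from the main ones. A higher minimum of tags leaves a ratio as it is. A gene with 1 annotated start keeps its TSS region when the start with the most tags is taken. These counts are therefore no measure of how stable the ratios are. No member called higher or lower had a ratio on the other side of 1. Uncalled ratios close to 1 did cross it: P2rx4 in the TSS region from 0.939 to 1.02 with 1 tag per position and 1.01 with scaling outside peaks, and the gene body of P2ry14 from 0.948 to 1.02 with that scaling. With tags shifted, the gene body ratio of P2ry13, 0.116, lay below that of P2ry6, 0.149, so their order turned. The value outside its interval is P2ry14 without its first 1 kb, at 0.467, a call lower that the whole gene does not give. With 500 bp on each side of the start, 1 member in place of 2 was called higher in the TSS region, since P2ry14 was then at 1.62. P2ry13 has too few tags for a value with the minimum of 50 in the gene body, the TSS region and, with 20, in 500 bp on each side. Without its first 1 kb it has none either, and P2ry14 then takes its place in the count of 3 members called lower. Scaling to tags outside peaks multiplies every LPS to untreated ratio by 1.08 (0.11 on the log2 scale) and leaves each gene's place against the median of all genes as it was. Ratios to input rise 1.91-fold in untreated cells and 2.06-fold after LPS. Depth limits P2ry13 most, with 3 LPS tags in each region. The share of genes called with unique positions was not run genome-wide.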
